A study of Mus musculus with 8 samples.

Results

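The contractile apparatus of smooth muscle was examined in mouse testis through 10 genes: Acta2, Myh11, Cnn1, Des, Tagln, Myl9, Lmod1, Actg2, Cald1 and Mylk. They were taken by symbol from a table of 55414 genes, and all 10 were found in it. Their label is that of peritubular myoid cells, the flat muscle-like cells that wrap the seminiferous tubules. RNA was sequenced from whole mouse testis in 4 control samples and 4 samples labelled with valine, an amino acid of the branched-chain group. The sources used here do not give strain, age, dose, route or duration, and the labels name no allele, transgene or further agent in either group. Nothing in them says whether each sample came from its own animal, so p-values measure the spread between these samples only, which may be technical. Values are FPKM, which divides a gene's fragments by its length and by library size, so that levels can be compared between genes.

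Peritubular myoid cells squeeze the tubule rhythmically and so move sperm and fluid towards the rete testis. As in other smooth muscle, calcium bound to calmodulin switches on myosin light chain kinase, the phosphorylated light chain lets myosin pull on actin filaments, and thin-filament proteins such as caldesmon and calponin restrain that pull. Hormones and peptides, among them oxytocin, endothelin and angiotensin, set the contraction, and androgen acts on the myoid cell as well. The same contractile genes are also used by the muscle layer of blood vessels. Several are used in other cells too: Actg2 transcripts are known from haploid germ cells, and Mylk and Cald1 have forms in non-muscle cells, which a value per gene does not separate.

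Many smooth muscle genes carry CArG boxes before their start, the sites of serum response factor (SRF): CC, 6 bases of A or T, and GG. The 250 bases before the annotated start are shown for the 3 genes that fell (Acta2, Lmod1 and the upstream start of Cald1) and for Myl9, which was more abundant and did not pass the test, so that their motifs can be set side by side. Sequences are from RefSeq on GRCm38.p6, an older build than the GRCm39 used by the authors; capitals mark a CArG box, a CArG-like match with 1 G or C in the core, or CATTCC (the core of the MCAT element, bound by TEAD factors), each searched on both strands. The windows are chr19:34255374-34255623 on the minus strand for Acta2 and, on the plus strand, chr1:135324563-135324812 for Lmod1, chr6:34598254-34598503 for Cald1 and chr2:156775214-156775463 for Myl9.
Acta2: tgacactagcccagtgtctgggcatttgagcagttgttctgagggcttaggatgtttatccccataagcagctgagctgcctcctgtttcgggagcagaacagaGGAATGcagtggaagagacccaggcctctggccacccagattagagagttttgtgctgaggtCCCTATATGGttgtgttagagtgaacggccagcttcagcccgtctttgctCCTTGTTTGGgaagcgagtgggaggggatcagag
Lmod1: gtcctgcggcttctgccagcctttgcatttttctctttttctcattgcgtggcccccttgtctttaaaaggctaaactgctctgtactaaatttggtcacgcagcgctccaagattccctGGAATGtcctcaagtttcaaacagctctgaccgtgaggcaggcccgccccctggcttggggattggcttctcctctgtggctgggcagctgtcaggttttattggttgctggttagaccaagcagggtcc
Cald1: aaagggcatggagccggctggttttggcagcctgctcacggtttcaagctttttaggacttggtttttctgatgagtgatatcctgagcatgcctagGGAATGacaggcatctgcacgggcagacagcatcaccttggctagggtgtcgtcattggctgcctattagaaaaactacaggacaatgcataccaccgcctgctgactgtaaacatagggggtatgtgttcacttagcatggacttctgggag
Myl9: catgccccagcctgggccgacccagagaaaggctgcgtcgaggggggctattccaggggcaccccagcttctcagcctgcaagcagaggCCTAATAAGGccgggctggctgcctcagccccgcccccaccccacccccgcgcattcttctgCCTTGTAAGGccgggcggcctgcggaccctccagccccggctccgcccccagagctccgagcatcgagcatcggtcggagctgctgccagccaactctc
Promoter entries were found for 7 of the 10 genes, with 8 windows in all since Cald1 has a second start. Acta2 held 2 CArG-like matches, Myl9 held 1 CArG box and 1 CArG-like match, and the other windows held neither. Across all 32851 promoter windows of the same length, 1.47% held a CArG box and 7.24% a CArG-like match. CATTCC was found in 4 of the 8 windows, those of Acta2, Lmod1, Mylk and the upstream start of Cald1, against 12.6% of all windows. TATAA was found in 1, at the second start of Cald1, against 22.8%. These are matches of letters in a short window and no sites were measured.

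The FPKM totals were 944659 to 974626 in control and 1027662 to 1070524 in valine samples, and the sequencing depth relative to control replicate 1, read from the steps between low values, was 0.871 to 1.0 and 0.866 to 0.99. Absolute depth was unknown. Transcripts that define testis were abundant in every sample: the summed level of 10 spermatid genes was 47079 to 49216 FPKM in control and 59547 to 71881 FPKM in valine samples, and that of 8 Sertoli cell genes 138 to 160.5 and 153 to 169 FPKM. Control replicate 1 stood apart in single transcripts of fat and epididymis, chosen after their values were seen. Cfd (adipsin) had 29.8 FPKM there and at most 1.77 FPKM in every other sample, and Crisp1, a protein of the epididymis, had 5.06 FPKM there and at most 0.282 FPKM elsewhere, while the summed epididymis list was highest in control replicate 3 (10.8 FPKM). Calls named below that were lost without this library are given with their value without it, or with its range over the libraries left out.

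The question was whether valine changed the transcripts of the contractile apparatus. Cald1, Acta2 and Lmod1 fell, and none of the other 7 genes passed the test. All 10 averaged at least 1 FPKM in these 8 samples and were tested. Tagln passed this filter only through its control values, since its valine mean was 0.953 FPKM. In limma on log2(FPKM + 1), with p-values adjusted over 22077 genes, 3 of 10 were lower and 0 higher at an adjusted p below 0.05, while 4.41% of all tested genes were lower and 4.32% higher. At an unadjusted p below 0.05 there were 7, of which Actg2 alone had a positive change. The share of all tested genes at that level was not counted, so the 7 cannot be set against it. The median change of the 10 genes was -0.44 on the log2 scale, and that of all tested genes was 0.02. The control and valine samples did not overlap for 3 of the 10, all lower; among all tested genes 9.39% were lower without overlap and 8.99% higher. All changes below use that log2(FPKM + 1) scale, on which low genes appear to change less than they do. In bulk tissue, fewer cells of a type and less RNA per cell cannot be told apart.

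**Figure D1:**
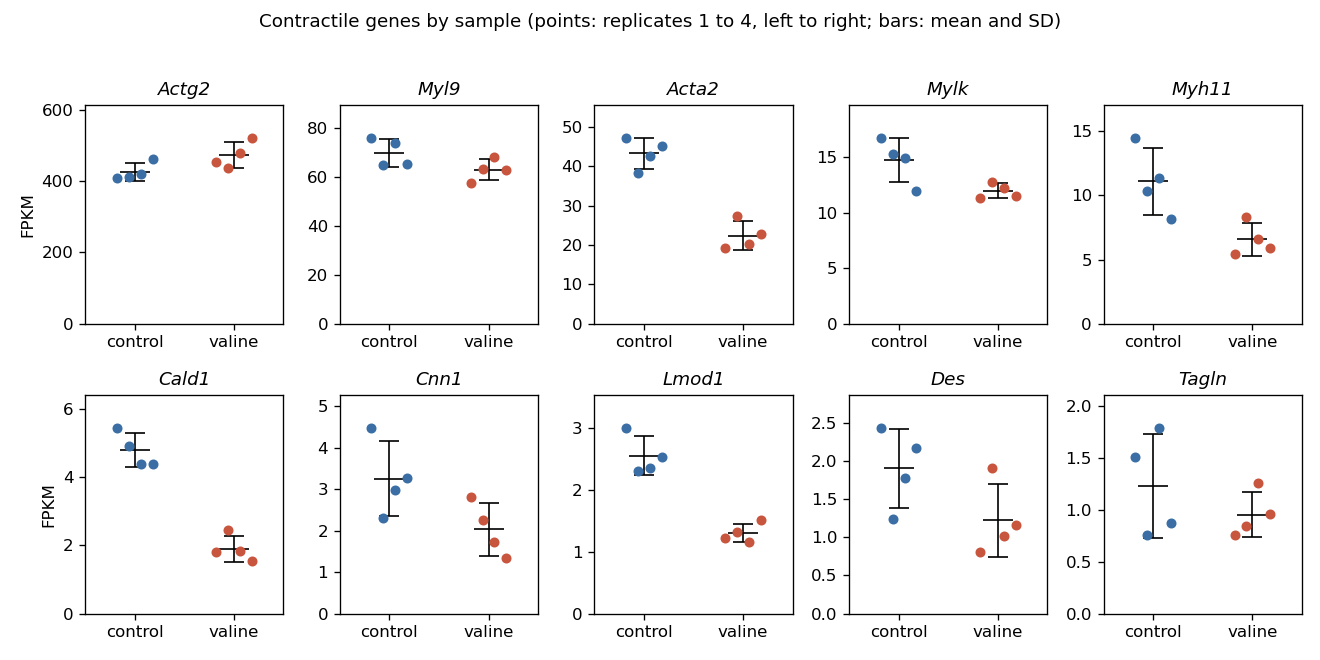
FPKM (vertical axes, each from 0) of the 10 contractile genes in the 4 control and 4 valine samples; points are replicates 1 to 4 and bars the mean and SD. The groups are apart for Acta2, Cald1 and Lmod1 and overlap for the other 7 genes.

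The thin filament is built of actin, and of the 2 smooth muscle actins Acta2 passed the test and Actg2 did not. Acta2, the smooth muscle alpha actin used to mark peritubular myoid cells, had 47.1, 38.2, 42.6 and 45.1 FPKM in control replicates 1 to 4 and 19.2, 27.4, 20.2 and 22.8 FPKM in valine replicates 1 to 4. Every valine sample lay below every control sample, with valine replicate 2 the nearest. The mean went from 43.2 ± 3.84 to 22.4 ± 3.64 FPKM (SD, n = 4 per group). The log2 change was -0.93 ± 0.115 (SE, limma adjusted p = 0.00447), which is a 1.90-fold fall in FPKM + 1. Acta2 passed under all 19 alternative analyses, with changes of -1.04 to -0.86.

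Actg2, the smooth muscle gamma actin of gut and other hollow organs, had 409.0, 412, 420.4 and 461 FPKM in control samples and 455, 438, 479 and 521 FPKM in valine samples. It was the most abundant of the 10 in every sample, and its groups overlapped only through control replicate 4. Its log2 change was 0.15 (95% interval 0.0035 to 0.30; limma adjusted p = 0.186), was 0.03 with samples scaled to equal totals and -0.02 with quantile normalisation, and did not pass under any of 19 alternatives. There were 9.89 ± 0.892 FPKM of Actg2 for each FPKM of Acta2 in control samples and 21.6 ± 3.72 in valine samples, with ranges of 8.68 to 10.8 and 16.0 to 23.7 that did not overlap. Actin genes are near-identical in their coding parts, and their split is uncertain where the authors' counting divided reads between them.

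Myosin pulls on these filaments, and the estimated changes of its genes were smaller than that of Acta2. The difference between them was not tested. Myh11, the smooth muscle myosin heavy chain, had 14.5, 10.4, 11.4 and 8.19 FPKM in control and 5.45, 8.33, 6.57 and 5.92 FPKM in valine samples. The groups met only at control replicate 4, the lowest control, and valine replicate 2, the highest valine sample. The mean was 11.1 ± 2.60 and 6.57 ± 1.26 FPKM, and the log2 change of -0.67 (95% interval -1.06 to -0.27) lay at the edge of the threshold (limma adjusted p = 0.0506). It passed under 6 of 19 alternatives, among them equal totals (limma adjusted p = 0.0329), and when control replicate 4 or valine replicate 2 was left out (limma adjusted p = 0.0314 and 0.0482). Without control replicate 1 the limma adjusted p was 0.108. Acta2 had 4.05 ± 0.994 FPKM for each FPKM of Myh11 in control and 3.43 ± 0.330 in valine samples. The ranges of this ratio overlapped (3.26 to 5.51 and 3.08 to 3.85).

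Myl9, the regulatory light chain of smooth muscle myosin, was abundant and showed little difference. It had 75.8, 64.8, 73.8 and 65.1 FPKM in control and 57.6, 63.1, 68.2 and 62.9 FPKM in valine samples. The groups overlapped through valine replicate 3 alone, and the log2 change was -0.15 (95% interval -0.32 to 0.02; limma adjusted p = 0.26). Mylk, the kinase that phosphorylates this light chain, had 16.7, 15.3, 15.0 and 12.0 FPKM in control and 11.3, 12.8, 12.2 and 11.5 FPKM in valine samples. Control replicate 4 lay among the valine samples, and the other 3 control samples lay above all of them. The log2 change of Mylk was -0.27 (95% interval -0.50 to -0.04; limma adjusted p = 0.137). Without control replicate 4 it was -0.36 and passed (limma adjusted p = 0.0367), and with the trend on gene length removed it was -0.13 (limma adjusted p = 0.473).

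Among the proteins that bind and regulate thin filaments, Cald1 and Lmod1 fell. Cald1, or caldesmon, which blocks myosin from actin, had 5.45, 4.94, 4.40 and 4.40 FPKM in control and 1.80, 2.45, 1.83 and 1.55 FPKM in valine samples. The highest valine sample was below the lowest control sample. The mean went from 4.80 ± 0.504 to 1.91 ± 0.384 FPKM, with a log2 change of -1.0 ± 0.125 (SE; limma adjusted p = 0.00453), the largest of the 10 genes in size. It passed under all 18 alternatives that tested it, with changes of -1.30 to -0.86.

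Lmod1, or leiomodin, which nucleates actin filaments in smooth muscle, had 3.003, 2.31, 2.36 and 2.53 FPKM in control and 1.22, 1.31, 1.17 and 1.51 FPKM in valine samples. These groups did not overlap either. The mean went from 2.55 ± 0.315 to 1.30 ± 0.152 FPKM, with a log2 change of -0.62 ± 0.118 (SE; limma adjusted p = 0.0176), and -0.92 with a pseudocount of 0.1. It did not pass when control replicate 1 or valine replicate 1 was left out (limma adjusted p = 0.0547 and 0.053).

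Cnn1, or calponin, which slows myosin on actin, had 4.48, 2.30, 2.98 and 3.26 FPKM in control and 2.81, 2.25, 1.73 and 1.34 FPKM in valine samples. Its valine samples reached into the control range through replicate 1, and 3 of 4 lay below it. The log2 change was -0.49 (95% interval -0.95 to -0.03; limma adjusted p = 0.171), and without control replicate 1 it was -0.36 (limma adjusted p = 0.336). Tagln, or SM22, an actin cross-linking protein, was the lowest of the 10, with 1.51, 0.753, 1.79 and 0.871 FPKM in control and 0.757, 0.845, 1.26 and 0.954 FPKM in valine samples. All 4 valine samples lay within the control range, and the log2 change was -0.17 (95% interval -0.60 to 0.26; limma adjusted p = 0.623). In the GENCODE vM21 annotation 1241 bases of its exons overlap Gm48529 and 108 bases overlap Pcsk7, both on the opposite strand; Pcsk7 had a mean of 21.6 FPKM. Whether reads were assigned by strand is not stated in the sources used here, so the values of Tagln are uncertain.

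Des, or desmin, the intermediate filament that ties the contractile units together, had 2.43, 1.24, 1.77 and 2.16 FPKM in control and 0.802, 1.90, 1.01 and 1.16 FPKM in valine samples. Here 3 of 4 valine samples lay below all control samples, and valine replicate 2 lay among them. The log2 change was -0.39 (95% interval -0.84 to 0.06, limma adjusted p = 0.258), and 220 bases of its exons overlap Gm15179 on the opposite strand. Mylk shares 548 exon bases with E130310I04Rik (mean 0.07275 FPKM) and 224 with Gm21691 (2.04 FPKM), both on the opposite strand. The strand question raised for Tagln applies to Des and Mylk as well. The intervals of Des and Tagln include 0 and reach to changes as large as that of Lmod1 or close to it.

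**Figure D2:**
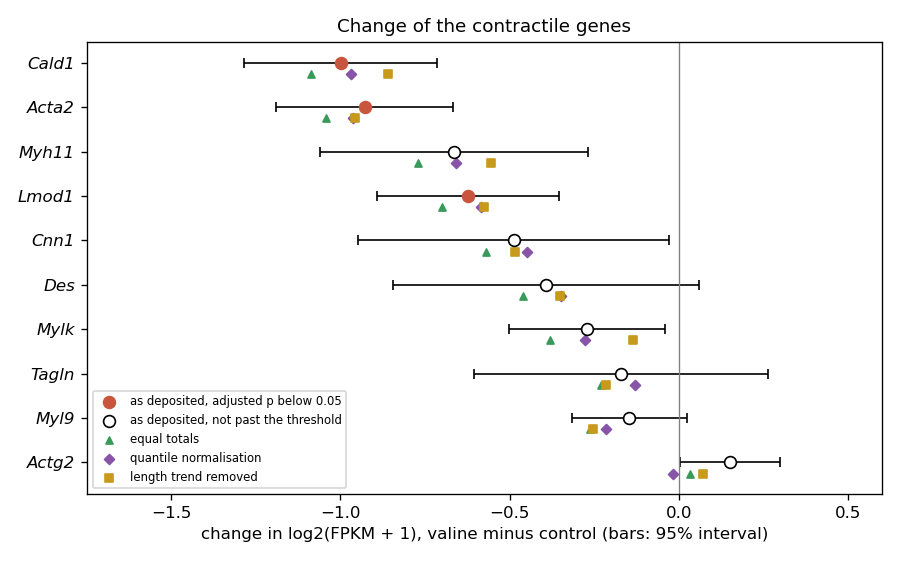
Change in log2(FPKM + 1), valine minus control (horizontal axis), for each contractile gene, with 95% intervals; filled points passed the limma test, and small symbols give the change with equal totals, quantile normalisation or the length trend removed. Actg2 is the only gene right of 0, and its change was -0.02 with quantile normalisation.

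The order of the levels was nearly the same in both groups and spanned a wide range. In control samples it ran from Actg2 (426 ± 24.0 FPKM), Myl9 (69.9 ± 5.74), Acta2 (43.2), Mylk (14.7 ± 1.99), Myh11 (11.1), Cald1 (4.80), Cnn1 (3.25 ± 0.910), Lmod1 (2.55) and Des (1.90 ± 0.519) to Tagln (1.23 ± 0.498 FPKM). Actg2, Myl9 and Acta2 were each apart from their neighbours over the 4 samples, as were Myh11 and Cald1. The ranges of Mylk and Myh11 overlapped, and so did those of each neighbouring pair from Cald1 down to Tagln. In valine samples Mylk and Myh11 were apart, and Cnn1 (2.03 ± 0.638 FPKM) stood beside Cald1 (1.91 FPKM) with overlapping ranges, while Cald1 and Lmod1 were apart. Actg2 made up 70.5% to 76.3% of the summed FPKM of the 10 genes in control and 78.4% to 82.6% in valine samples. The sum of all 10 was 552.2 to 604.5 FPKM in control and 555.9 to 630.3 FPKM in valine samples, and these ranges overlapped. Without Actg2, the only one of the 10 with a positive change, the groups did not overlap. Actg2 was left out with its change known, and the sum includes Acta2, so this separation is not a further result. The summed level of the other 9 was then 171, 140.2, 156 and 144 FPKM in control and 101, 120.4, 114 and 109.7 FPKM in valine samples.

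Within each group the genes differed in spread and samples differed together. The coefficient of variation among control samples was 5.65% for Actg2, 8.21% for Myl9 and 8.88% for Acta2, and 23.5% to 40.5% for Myh11, Des, Cnn1 and Tagln. Control replicate 1 was the highest control sample for 8 of the 10 genes, the exceptions being Tagln and Actg2. Valine replicate 2 was the highest valine sample for 5, namely Acta2, Myh11, Des, Cald1 and Mylk. Control replicate 1 is also the library with the fat and epididymis transcripts given above; their part in these levels was not tested, and without this library Acta2 and Cald1 still passed (limma adjusted p = 0.0188 and 0.0192), with changes of -0.89 and -0.95. In all, 2 of the 10 genes were lower without control replicate 1, 2 without valine replicate 1, and 5 without control replicate 4, where Myh11 and Mylk were added.

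**Figure D3:**
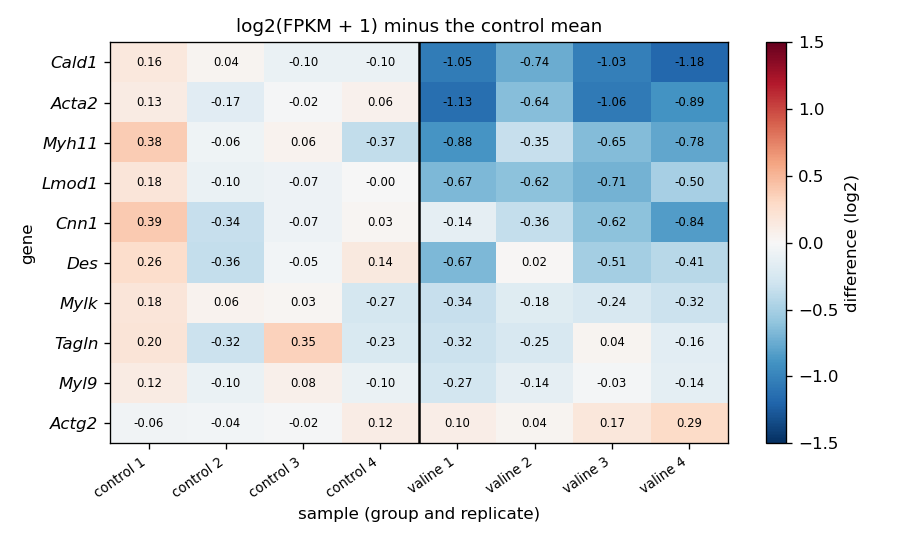
Difference of log2(FPKM + 1) from the control mean (colour and printed value) for each contractile gene (rows) in each sample (columns). Cald1, Acta2 and Lmod1 lie below every control sample in all 4 valine samples. Among valine samples, replicate 2 is nearest to the control mean for Acta2, Myh11, Des, Cald1, Mylk and Actg2.

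Other structural genes of smooth muscle were taken from a list of 24, of which 20 were tested: 6 fell (30.0%, against 4.41% of all tested genes), 0 rose, and the list median was -0.20. Csrp1, a LIM protein of smooth muscle, fell from 26.0 ± 3.31 to 12.9 ± 1.33 FPKM (log2 change -0.96; limma adjusted p = 0.00355). It was close to Acta2 in size of change, and Acta2 had 1.67 ± 0.124 FPKM for each FPKM of Csrp1 in control and 1.73 ± 0.130 in valine samples. Flna, the filamin that joins actin to the membrane, fell from 16.6 ± 3.04 to 9.74 ± 1.34 FPKM (limma adjusted p = 0.0204); it did not pass without control replicate 1 or 2 or valine replicate 1 or 4 (limma adjusted p = 0.0506, 0.0548, 0.0601 and 0.0524). Fhl2, a LIM cofactor of SRF-dependent transcription, fell from 11.9 ± 2.43 to 7.08 ± 1.34 FPKM (limma adjusted p = 0.0489), and this call was lost under 10 of 19 alternatives, 6 of them with 1 library left out (control replicate 1, 2 or 4 or valine replicate 1, 2 or 3; limma adjusted p = 0.0936 to 0.12). The others that fell were Tpm1, Pdlim5 and Vcl, named after their values were seen. The Pdlim5 call was lost under 13 of the 18 alternatives that tested it, among them any 1 library left out (limma adjusted p = 0.0626 to 0.112). That of Vcl was lost under 9 of 19, among them control replicate 1, 2 or 3 or valine replicate 1, 2 or 4 left out (limma adjusted p = 0.0802 to 0.102). Pcp4, a calmodulin-binding peptide named after its value was seen, was listed at 0 in all samples. Only 2 genes of this list were lower without control replicate 1 or 2 or valine replicate 1, and 3 without valine replicate 2 or 4.

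Genes that carry the contraction signal inside the cell were taken from a list of 30. Of the 24 tested, 5 fell (20.8%, against 4.41% of all tested genes), 0 rose, and the median was -0.19. Ppp1r14a, or CPI-17, a smooth muscle inhibitor of myosin phosphatase, fell from 10.8 ± 0.710 to 6.89 ± 1.21 FPKM (log2 change -0.59; limma adjusted p = 0.0245). It did not pass without control replicate 1, 2 or 4 or valine replicate 1 (limma adjusted p = 0.0713, 0.0539, 0.0568 and 0.0552). Cacna1h, a T-type calcium channel, fell from 79.2 ± 3.73 to 58.1 ± 4.32 FPKM (log2 change -0.44; limma adjusted p = 0.00708). Atp2b1, a calcium pump of the cell membrane, fell from 3.48 ± 0.623 to 2.22 ± 0.141 FPKM (limma adjusted p = 0.0479), and this was lost with any 1 of the 8 libraries left out (limma adjusted p = 0.0557 to 0.102). The other 2 were the calcium pumps Atp2a2 and Atp2b4, named after their values were seen. The Atp2a2 call was lost under 9 of 19 alternatives, among them control replicate 1, 3 or 4 or valine replicate 2, 3 or 4 left out (limma adjusted p = 0.0618 to 0.0794). Of this list 2 genes were lower without control replicate 1, 3 without control replicate 2 or 4 or any 1 valine sample, and 11 with equal totals.

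The largest changes around contraction were those of Oxtr and Agt, in its hormone and peptide signals. As a list these signals had a median smaller in size than that of the contractile genes (-0.44). Of 26 ligands, receptors and processing enzymes 10 were tested, and 16 were below 1 FPKM on average. Of those tested 4 fell (40.0%, against 4.41% of all tested genes) and 0 rose (median -0.15). Oxtr, the oxytocin receptor, had 5.68, 8.66, 8.38 and 5.98 FPKM in control and 1.67, 1.26, 1.29 and 1.33 FPKM in valine samples. The groups were far apart, and the log2 change was -1.76 ± 0.149 (SE; limma adjusted p = 0.00129). Agt, the precursor of angiotensin, fell from 125.8 ± 17.2 to 48.5 ± 14.8 FPKM (log2 change -1.40; limma adjusted p = 0.0086). Ece1, which activates endothelin, fell from 9.74 ± 1.47 to 5.17 ± 1.00 FPKM (limma adjusted p = 0.0174), though not without control replicate 1 or 2 (limma adjusted p = 0.0531 and 0.0508). Ednra, the endothelin A receptor, named after its value was seen, had 2.81 ± 0.372 and 1.46 ± 0.396 FPKM (limma adjusted p = 0.0339, lost under 10 of the 18 alternatives that tested it, and 0.0682 without control replicate 1). In this list 2 genes were lower without control replicate 1 or 2. Agt and Ece1 are also expressed outside myoid cells. Which cells held the Oxtr transcripts was not tested.

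SRF and its partners drive contractile genes. Of 22 genes of smooth muscle transcription and transforming growth factor beta signalling 18 were tested, 3 fell (16.7%, against 4.41% of all tested genes), 0 rose, and the median was -0.10. Tgfbr2, a receptor of transforming growth factor beta, fell from 1.76 ± 0.207 to 0.423 ± 0.047 FPKM (log2 change -0.95, limma adjusted p = 0.00583). Its valine mean lay below the filter of 1 FPKM, which this receptor passed only through its control values. Smad3, which carries its signal to the nucleus, fell from 5.23 ± 0.670 to 3.21 ± 0.651 FPKM (limma adjusted p = 0.0364), a call lost under 9 of the 18 alternatives that tested it, 6 of them with 1 library left out (control replicate 1, 2 or 4 or valine replicate 1, 2 or 4; limma adjusted p = 0.0779 to 0.0933). Mef2d, a MADS-box factor like SRF, fell from 11.2 ± 0.771 to 7.71 ± 0.786 FPKM (limma adjusted p = 0.0149). Named after their values were seen, Srf had 41.8 ± 4.42 and 40.2 ± 2.03 FPKM (limma adjusted p = 0.74), and Myocd, the smooth muscle cofactor of SRF, was below the filter at 0.202 ± 0.133 and 0.0695 ± 0.0173 FPKM.

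Relatives of the contractile genes from other cell types were compared with them, since protein families differ in tissue. Of 24 non-muscle and striated muscle relatives 17 were tested, with a median of -0.11. Of these 2 fell (11.8%, against 4.41% of all tested genes) and 1 rose, while 4.32% of all tested genes were higher. Cnn3, a calponin of non-muscle cells, fell from 5.84 ± 0.682 to 2.90 ± 0.896 FPKM (log2 change -0.83; limma adjusted p = 0.0211), but not without control replicate 1 or 2 or valine replicate 4 (limma adjusted p = 0.0658, 0.058 and 0.0524). Tpm4, a non-muscle tropomyosin, fell from 5.25 ± 0.818 to 2.88 ± 0.488 FPKM (limma adjusted p = 0.0177), but not without control replicate 1 or valine replicate 1 (limma adjusted p = 0.0547 and 0.0544). Actb, the cytoplasmic beta actin, rose from 483 ± 20.4 to 562 ± 33.1 FPKM (log2 change 0.22; limma adjusted p = 0.042). That call was lost under 15 of 19 alternatives, among them any 1 library left out (limma adjusted p = 0.0654 to 0.0998), equal totals (0.215) and quantile normalisation (0.544). Of these relatives 0 were lower without control replicate 1, and 1 without control replicate 2 or valine replicate 1 or 4. Vim, the intermediate filament of mesenchymal and Sertoli cells, named after its value was seen, had 26.2 ± 2.48 and 24.1 ± 2.31 FPKM, and Acta2 had 1.67 ± 0.232 FPKM for each FPKM of Vim in control and 0.929 ± 0.125 in valine samples.

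Genes of peritubular cells that are not contractile also fell in part. Of 12 listed 11 were tested, 4 fell (36.4%, against 4.41% of all tested genes), 0 rose, and the median was -0.54. Pdgfra, a growth factor receptor of interstitial and peritubular cells, fell from 4.88 ± 1.36 to 1.88 ± 0.204 FPKM (log2 change -1.0; limma adjusted p = 0.0121). Ptch1, the hedgehog receptor, fell from 2.39 ± 0.239 to 1.05 ± 0.0974 FPKM (log2 change -0.72; limma adjusted p = 0.00966). Serpinf1, a secreted factor of peritubular cells, fell from 6.73 ± 1.87 to 3.16 ± 1.17 FPKM (limma adjusted p = 0.0442), a call lost under 11 of the 18 alternatives that tested it, 7 of them with 1 library left out (any but valine replicate 1; limma adjusted p = 0.0611 to 0.0995). Fn1, fibronectin, named after its value was seen, was the fourth. Its call was lost under 5 of the 18 alternatives that tested it, among them control replicate 1 or valine replicate 1 or 4 left out (limma adjusted p = 0.0577, 0.0552 and 0.0516). Without control replicate 1 or valine replicate 4, 2 genes of the list were lower. The summed level of the list was 27.0 to 41.0 FPKM in control and 16.5 to 19.2 FPKM in valine samples.

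Markers of the other cells that could hold these transcripts moved in the same samples. Of 13 genes of vascular mural cells, the muscle cells and pericytes of vessels, 8 were tested, 4 fell and 0 rose (median -0.63). Rgs5 fell from 4.87 ± 1.69 to 1.90 ± 0.574 FPKM, Steap4 from 2.40 ± 0.917 to 0.891 ± 0.222 FPKM and Rgs4 from 1.79 ± 0.245 to 0.690 ± 0.268 FPKM (limma adjusted p = 0.033, 0.0496 and 0.0269). The valine means of Steap4 and Rgs4 lay below the filter of 1 FPKM, which both passed only through their control values. Rgs5 did not pass in 6 of the 8 analyses that left out 1 library (all but control replicate 4 and valine replicate 2; limma adjusted p = 0.0672 to 0.0879), nor Steap4 in 7 (all but control replicate 3; 0.0798 to 0.107), nor Rgs4 in 4 (control replicate 1 or 2, valine replicate 1 or 4; 0.0647 to 0.0796). The summed level of the list was 71.4 to 96.8 FPKM in control and 81.2 to 100.8 FPKM in valine samples, most of it from Ndufa4l2 (53.6 ± 10.01 and 74.0 ± 9.43 FPKM; limma adjusted p = 0.0708), named after its value was seen. The fourth, Mcam, named after its value was seen, changed by -0.71 (limma adjusted p = 0.0161). It passed under all 19 alternatives (limma adjusted p of at most 0.0461). Without control replicate 1 or 2 or valine replicate 1 or 4, 1 gene of the list was lower, and 2 without valine replicate 3. No marker of this list was at 0 in all samples, but Notch3, Kcnj8, Cspg4, Higd1b and Heyl, named after their values were seen, averaged below 1 FPKM. The part of vessel muscle in the fall of the contractile genes was not tested.

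Among interstitial cells, 8 of 8 tested Leydig cell genes fell (median -1.91), with summed levels of 1615 to 2284 FPKM in control and 488 to 777 FPKM in valine samples. Of endothelial genes 4 of 8 fell (sums 34.2 to 40.5 and 21.1 to 23.3 FPKM), of macrophage genes 5 of 9 (107.7 to 130.0 and 47.6 to 63.4 FPKM) and of matrix genes 5 of 6 (49.0 to 84.0 and 20.7 to 25.9 FPKM). Beside these counts and those that follow, 4.41% of all tested genes were lower and 4.32% higher. Of spermatid genes 9 of 10 rose (median 0.33), though 0 of 10 with quantile normalisation and 2 with the length trend removed, and of Sertoli cell genes 0 of 8 passed in either direction (median 0.09). Their part in the changes of the contractile genes was not tested. Of 15 striated muscle genes only 4 had a mean of at least 1 FPKM and 0 passed (sums 24.6 to 35.2 and 24.9 to 34.95 FPKM); Mylpf had 2.27 ± 1.10 and 3.23 ± 0.819 FPKM, and Pygm 4.25 ± 0.722 and 3.53 ± 1.04 FPKM. Epididymis genes had sums of 2.19 to 10.8 and 4.60 to 9.59 FPKM, with 1 of 9 tested, Rnase10 (4.35 ± 3.42 and 5.82 ± 2.45 FPKM), and 0 passing, and Spint4, named after its value was seen, was listed at 0. Of fat genes 1 of 6 fell, the lipid droplet gene Plin1 (limma adjusted p = 0.0314; 0.0877 without control replicate 1, and 0 fat genes fell with any 1 library left out but control replicate 4), and their sums were 31.9 to 93.5 FPKM in control, the highest being control replicate 1, and 33.9 to 41.6 FPKM in valine samples.

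The single markers below had the largest changes among those that passed in each list, or the smallest p where none passed. The steroid synthesis genes Cyp11a1, Hsd17b3 and Hsd3b1 of Leydig cells fell from 115 ± 29.7, 87.1 ± 25.8 and 128 ± 44.7 FPKM to 19.02 ± 3.78, 16.5 ± 6.21 and 28.0 ± 3.52 FPKM. The endothelial genes Eng, Esam and Cdh5 fell by 1.00, 0.79 and 0.78 on the log2 scale, the macrophage genes Ctss, Lyz2 and Csf1r by 1.53, 1.39 and 1.19, and the matrix genes Col4a1, Dcn and Col4a2 by 1.39, 1.28 and 1.27. The medians of the endothelial, macrophage and matrix lists were -0.58, -1.14 and -1.26. Of the 8 tested endothelial genes 1 had a positive change, Tek (0.02, not past the threshold), named after its value was seen. The spermatid genes Tnp1, Prm1 and Prm2, which pack the sperm nucleus, rose by 0.48, 0.47 and 0.47 on the log2 scale, and none of them passed with quantile normalisation (limma adjusted p = 0.127, 0.319 and 0.511). In Sertoli cells Rhox5 had 14.7 ± 1.04 and 17.0 ± 0.9753 FPKM (limma adjusted p = 0.138), and Cldn11, a tight junction gene, 84.2 ± 6.16 and 92.2 ± 4.33 FPKM (limma adjusted p = 0.24).

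**Figure D4:**
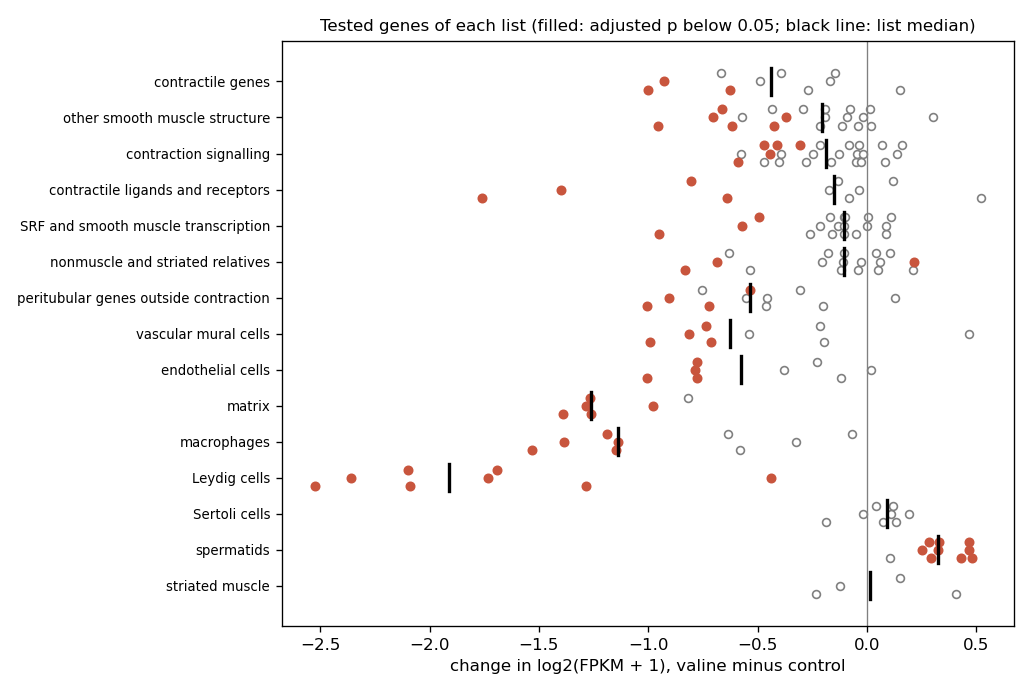
Change in log2(FPKM + 1), valine minus control (horizontal axis), of each tested gene in the contractile genes and in 14 other lists (rows); filled points passed the limma test and black lines are list medians. The median is -0.44 for the contractile genes, -1.91 for Leydig cell genes and 0.33 for spermatid genes.

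Genes were ranked by the likeness of their pattern over the 8 samples to that of a contractile gene. The measure was the root mean square difference of standardised log2(FPKM + 1). The ranking covered 9961 candidates among the 13567 genes that averaged 5 FPKM or more. Other genes at that level were not ranked, so closest means closest among these candidates. Acta2 was closest to Zfp346, Csrp1 and Fkbp9 (differences of 0.0835, 0.175 and 0.194 SD). Myh11 was closest to Flna, Lamb2 and Inppl1 (0.136, 0.153 and 0.186 SD), and Cald1 to Sparcl1, Zfp609 and Cdc42bpb (0.101, 0.14 and 0.143 SD). Des had no neighbour as close: its nearest were Trim32, Vmac and Casc3 (0.225, 0.23 and 0.266 SD). Likeness of this kind ignores the size of a change. Zfp346 changed by -0.21 on the log2 scale against -0.93 for Acta2 (its call was lost under 11 of 19 alternatives, with any 1 library left out among them; limma adjusted p = 0.0619 to 0.102), while Sparcl1, a matrix-associated glycoprotein, changed by -1.47 against -1.0 for Cald1.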

How the data were processed

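Total RNA of frozen mouse testis was sequenced from 4 control and 4 valine samples, per the labels' protocols. The deposited table holds FPKM per Ensembl gene, and HISAT2 and GRCm39 are named as the authors' aligner and build, per the submitters' processing notes; quantifier, annotation release and strand setting are not given in the sources used here. Columns were matched to samples by group name or abbreviation and replicate number, with 0 per-sample columns unused; no 2 samples were identical. Symbols came from a table of names by Ensembl identifier and the RefSeq gene table (52081 of 55414 genes named).

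The 22077 genes averaging at least 1 FPKM were tested in limma 3.58.1 (R 4.3.3) on log2(FPKM + 1), with treatment as the only term, moderation with a trend on mean level, and two-sided p-values adjusted by Benjamini-Hochberg (threshold 0.05). On simulated data for this comparison (22077 genes), 40 of 100 genes were recovered at a log2 change of 0.5 and 68 of 100 at 1, with 3 false calls. The contractile genes and the 16 other lists were chosen with earlier results of these data known. Named genes were all 10 contractile genes, up to 3 genes of each list that passed, largest first (or the 2 of smallest p where none did), and the 3 nearest patterns to 4 of the contractile genes; others are said to be chosen after their values were seen. The 19 alternatives covered the pseudocount, filter, scaling, moderation, array weights, replicate block, gene length (loess span 0.3 on GENCODE vM21 exon length) and each sample left out. Relative depth is the most frequent ratio between low values of 2 samples.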

Additional observations from a re-analysis of the deposited data

How the results depend on the processing

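The count of contractile genes that were lower was 3 as deposited, 2 to 4 under alternatives that kept all samples, and 2 to 5 with 1 sample left out; none was higher under any alternative. Among the 10 genes the direction changed once, for Actg2 with quantile normalisation (-0.018). Over all tested genes the counts of 954 higher and 974 lower became 363 and 2022 with equal totals, which moved the median change by -0.10 and the share higher from 49.5% to 15.2%. The count of higher genes was 398 with quantile normalisation (share higher 27.9%), 568 with no filter and 503 without the trend in moderation. With 1 sample left out, 381 to 795 genes were higher and 461 to 802 lower.

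Replicate numbers are shared between the groups, but nothing in the labels says that they pair samples, and deviations of same-numbered samples correlated at -0.017, -0.04, 0.104 and 0.111 across genes. Control replicates 1, 2 and 3 each correlated better with another number than with their own. With the replicate block 581 genes were higher and 489 lower, and 2 of the 10 contractile genes were lower, Acta2 and Cald1; Lmod1 did not pass (limma adjusted p = 0.0632). The absolute depth is unknown; the SE of the log2 change was largest for Cnn1, Des and Tagln (0.201, 0.198 and 0.190).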
